A study of Mus musculus with 6 samples.

Results

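The genes described here are 40 listed antiviral interferon-stimulated genes of the mouse, chosen by name from the genes that type I and type III interferons induce and leaving out the GTPases of the IRG and GBP families. The choice was made with earlier results of these data known. Shares of all genes set beside counts of members are therefore a description and not a test. All 40 were found among the 51912 genes of the tables, and all 40 were among the 13644 genes that passed the filter on low counts. They were measured by RNA-seq in epithelium sorted from C57BL/6 small intestine, with 2 libraries in each of 3 groups. SPF (specific pathogen free) mice carry a microbiota and eat food with foreign antigens. GF (germ free) mice have no microbiota, and AF (antigen free) mice lack foreign antigens of both microbes and food. The labels give no age, sex, number of animals per library or diet beyond this, so p-values measure the spread between these libraries only, which may be technical.

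Interferons are secreted proteins that warn cells of viral infection. Type I interferons act through the receptor Ifnar1/Ifnar2 on nearly all cells, and type III interferons (interferon lambda) through Ifnlr1/Il10rb, which is found mainly on epithelium and is the leading interferon receptor of intestinal epithelial cells. Both receptors activate the factor ISGF3, of which Stat2 and Irf9 are subunits, and ISGF3 binds the interferon-stimulated response element in the promoters of target genes. Interferon gamma acts through another receptor and another promoter element, the gamma-activated site. The products of the target genes sense viral nucleic acid, degrade RNA, block translation or hold virions in the cell, and several of them feed back on the pathway.

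The promoters of the members were searched for the core of the response element, GAAA, any 2 bases, then GAAA, on either strand, in RefSeq windows of GRCm38.p6 that run from 250 bases before to 50 bases after the start. Windows were at hand for 32 members, and 16 of them (50%) held the core, against 3.99% of the 27025 genes with a window. The gamma-activated site, TTC, any 3 bases, then GAA, which reads the same on both strands, stood in 6 of the 32 (18.8%) and in 9.55% of all genes. A match is a description of the letters and not a measured binding site, and a window without one says nothing about the factor. The 150 bases before the start are shown for the 4 members with the core whose difference between SPF and the other groups had the smallest p among the members described in full, and for Ifi44, which has no match. The core is in capitals, and where the capitals read as T and C runs it lies on the opposite strand.
Trim30a, chr7:104465194-104465343, minus strand: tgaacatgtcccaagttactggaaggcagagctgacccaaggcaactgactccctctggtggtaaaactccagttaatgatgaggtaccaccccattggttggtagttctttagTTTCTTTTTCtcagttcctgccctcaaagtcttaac
Ddx60, chr8:61927937-61928086, plus strand: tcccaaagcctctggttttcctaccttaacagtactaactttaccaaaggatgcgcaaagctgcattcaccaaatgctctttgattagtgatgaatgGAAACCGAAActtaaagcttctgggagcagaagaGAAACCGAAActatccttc
Bst2, chr8:71537473-71537622, minus strand: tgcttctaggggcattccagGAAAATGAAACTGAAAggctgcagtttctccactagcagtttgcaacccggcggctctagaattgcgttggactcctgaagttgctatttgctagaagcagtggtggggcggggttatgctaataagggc
Ifit1, chr19:34640739-34640888, plus strand: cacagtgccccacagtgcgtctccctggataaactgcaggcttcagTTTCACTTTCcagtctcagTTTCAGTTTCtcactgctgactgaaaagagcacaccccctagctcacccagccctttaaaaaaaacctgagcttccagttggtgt
Ifi44, chr3:151749911-151750060, minus strand: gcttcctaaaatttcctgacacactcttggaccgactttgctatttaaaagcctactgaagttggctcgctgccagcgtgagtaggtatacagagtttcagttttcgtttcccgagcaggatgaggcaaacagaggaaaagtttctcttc

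Ddx60 and Ifit1 each carry 2 separate cores, and Bst2 carries 2 that overlap. Shorter stretches are shown for Isg15, where 3 cores overlap in a run, and for a pair of gene copies from each of 2 clusters. These were chosen after the values were seen.
Isg15, chr4:156200863-156200902, minus strand: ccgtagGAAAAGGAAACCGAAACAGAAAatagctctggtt
Oas1a, chr5:120907516-120907555, minus strand: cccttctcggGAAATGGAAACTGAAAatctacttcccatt
Oas1g, chr5:120887602-120887641, minus strand: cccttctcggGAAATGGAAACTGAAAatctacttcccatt
Ifit3, chr19:34583365-34583424, plus strand: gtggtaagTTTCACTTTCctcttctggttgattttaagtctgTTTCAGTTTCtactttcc
Ifit3b, chr19:34607761-34607820, plus strand: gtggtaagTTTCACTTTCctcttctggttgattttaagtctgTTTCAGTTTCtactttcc

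The 40 bases around the start of Oas1a and Oas1g differed at 0 positions, and so did the 60 bases upstream of Ifit3 and Ifit3b. Each pair of copies thus holds the same cores. The median log2 fold change of GF against SPF was -1.27 over the 16 members with the core and -0.90 over the 16 without it, and that of AF against SPF was -0.73 and -0.59. These medians are a description and were not tested.

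**Figure D1:**
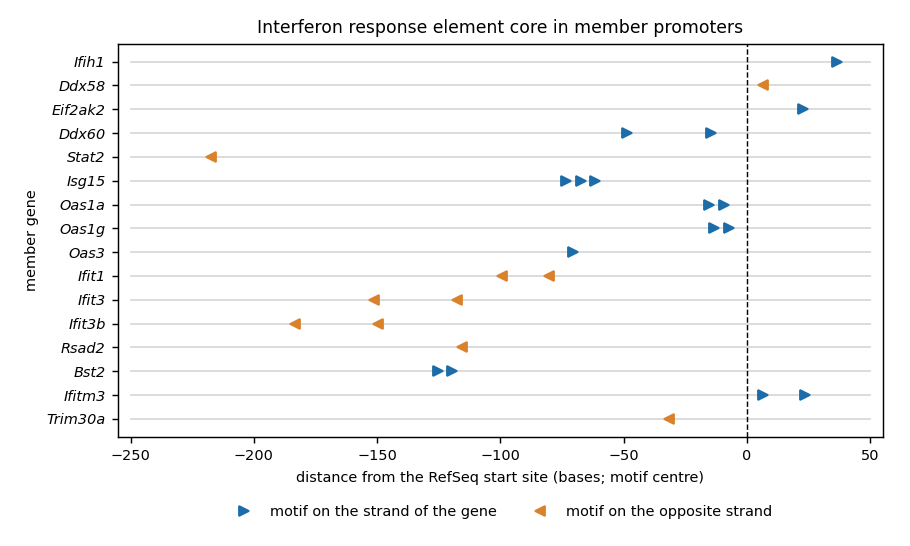
Position of the response element core in the first listed promoter window of the 16 members that hold it, as distance of the motif centre from the RefSeq start site in bases, with right-pointing marks on the strand of the gene and left-pointing marks on the opposite strand. In Ifih1, Ddx58, Eif2ak2 and Ifitm3 the marks lie after the start, and in the other members before it, while a second listed window of Trim30a, not drawn, has its core just after its start.

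Libraries held 16109488 to 19417054 expected counts. The low end for a member was 17 counts (Ifit2 in an AF library). Values are CPM (counts scaled to a common library total with TMM). The epithelial marker list summed to 7877 to 10125 CPM, while B and plasma cell markers summed to 0.401 to 1.76, stroma and endothelium markers to 4.18 to 9.77 and myeloid markers to 6.89 to 17. SPF replicate 4 stood apart, with the highest enterocyte sum (67433 CPM, against 22944 to 36313 in the other libraries) and the lowest crypt (106 against 293 to 745) and Paneth cell sums (46.2 against 1183 to 7032). The Y-linked gene Eif2s3y was at 0 in both SPF libraries and at 20.7 to 24.3 CPM in the other 4. Xist measured 129.7 and 96.6 CPM in SPF, 14.8 in GF replicate 3 and at most 0.178 in the other 3 libraries, so GF replicate 3 held both Xist and Y-linked transcripts (Eif2s3y at 22.5 CPM). What this means for the members' higher level in that GF library was not tested. Sex therefore cannot be told apart from SPF against the other groups. The names of the tables carry a date-like mark that differs between the groups, so that whatever it dates cannot be told apart from the groups either.

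The antiviral genes were expressed in every library. On the per-length scale of TPM, the highest mean levels in SPF were those of Irf7 (263 TPM), Lgals3bp (229.7 TPM) and Isg15 (204 TPM), and the lowest were those of Ifit2 (1.49 TPM) and Ifit3b (3.23 TPM).

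All 40 members had a lower mean in GF than in SPF by the fitted log2 fold change, where 48.1% of all genes tested were lower. Their median log2 fold change was -1.09, against 0.022 over all genes, and ranged from -2.65 (Ifi44) to -0.40 (Lgals3bp). The 2 GF libraries were both below both SPF libraries for 36 members, which was so for 17.1% of all genes, and the exceptions were Irf7, Irf9, Ifitm3 and Ifi35. For 17 members both GF libraries were, with TMM scaling, below all SPF and AF libraries, against 4.2% of all genes. None of the 40 passed edgeR's quasi-likelihood test after adjustment over all genes, which called 0% of the genes lower in GF, and the smallest adjusted p of a member was 0.738. At an unadjusted p below 0.05, 31 members were lower, against 3.51% of all genes. DESeq2 called 5 members lower (Oas2, Ifit1, Rsad2, Trim30a and Ifi44) and 0.293% of all genes, and edgeR's likelihood ratio test called the same 5 and Herc6, against 0.322% of all genes. In these bulk samples, fewer cells of a type and less RNA per cell cannot be told apart. Markers of epithelial cell types moved with the same comparisons. Enterocyte genes were lower in GF than in SPF for 13 of 14 (median log2 fold change -0.79, and -1.19 in AF). Enteroendocrine genes were higher in GF for 11 of 11 (1.73, and 1.63 in AF), and tuft cell genes for 7 of 7 (1.69, and 2.52 in AF). Paneth cell genes were higher in GF for 9 of 9 (2.20, and 1.10 in AF). So were crypt genes for 12 of 14 (0.21) and goblet cell genes for 5 of 8 (0.15), against 51.9% of all genes. The enterocyte sum of SPF replicate 3, 32337 CPM, lay between the GF sums of 23854 and 36313. SPF and GF also overlapped in the Paneth cell sum (1739 and 46.2 CPM in SPF, 7032 and 1183 in GF). The same was so for the crypt sum (638 and 106 in SPF, 745 and 295 in GF). For the goblet cell sum, SPF held both the highest and the lowest library (29182 and 2807, against 11926 and 16888 in GF). Enteroendocrine and tuft cell sums were lowest in SPF replicate 4 (376 and 15.5 CPM) and next lowest in SPF replicate 3 (1491 and 67.6). None of these marker genes was called after adjustment, and their part in the members' result was not tested.

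AF stood between the other groups for most members. All 40 were lower in AF than in SPF (49.1% of all genes), with a median log2 fold change of -0.68 against 0.011 over all genes. Both AF libraries were below both SPF libraries for 30 members (22.6% of all genes). edgeR's quasi-likelihood test called 0 of the 40 lower and 0.0147% of all genes, with a smallest adjusted p of 0.324 (Ifi44). At an unadjusted p below 0.05, 14 were lower, against 6.52% of all genes, and DESeq2 called 6 (Zbp1, Ddx60, Herc6, Parp9, Trim30a and Ifi44), against 1.19%. edgeR's likelihood ratio test called 5 of these, all but Parp9, against 1.19%. Against GF, with TMM scaling, 30 members were higher in AF (47.1% of all genes) and 10 were lower (52.9%), with a median of 0.43 against -0.023 over all genes. With the same scaling, both AF libraries were above both GF libraries for 18 members (15.8% of all genes) and below for Ddx58 and Eif2ak2 (17.8%). The quasi-likelihood test called 0 members in AF against GF, where 0.00733% of all genes were called higher and 0.00733% lower. The 4 higher at an unadjusted p below 0.05 (1.52% of all genes) were Oas2, Ifit3, Ifit3b and Mx2. DESeq2 called 0 members, with 0.0953% of all genes higher and 0.279% lower. The AF against SPF and GF against SPF comparisons share the SPF libraries, and AF against GF shares libraries with both.

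The sign of the AF against GF median depended on the scaling. With library totals alone, 22 members were higher and 18 lower, at a median of 0.15 where the median of all genes was -0.38. On log2(TPM + 1), 19 were higher and 21 lower, at a median of -0.0073 where that of all genes was -0.36. Relative to the median of all genes the members stood higher by 0.46 with TMM, 0.53 with library totals and 0.35 on log2(TPM + 1). Without GF replicate 1 the median was 0.11, and without GF replicate 3 it was 0.84. Whether the AF and GF libraries overlapped was counted with TMM only. Of the members with both AF libraries above both GF libraries, Epsti1 and Xaf1 were not higher in AF on log2(TPM + 1), and the others were.

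**Figure D2:**
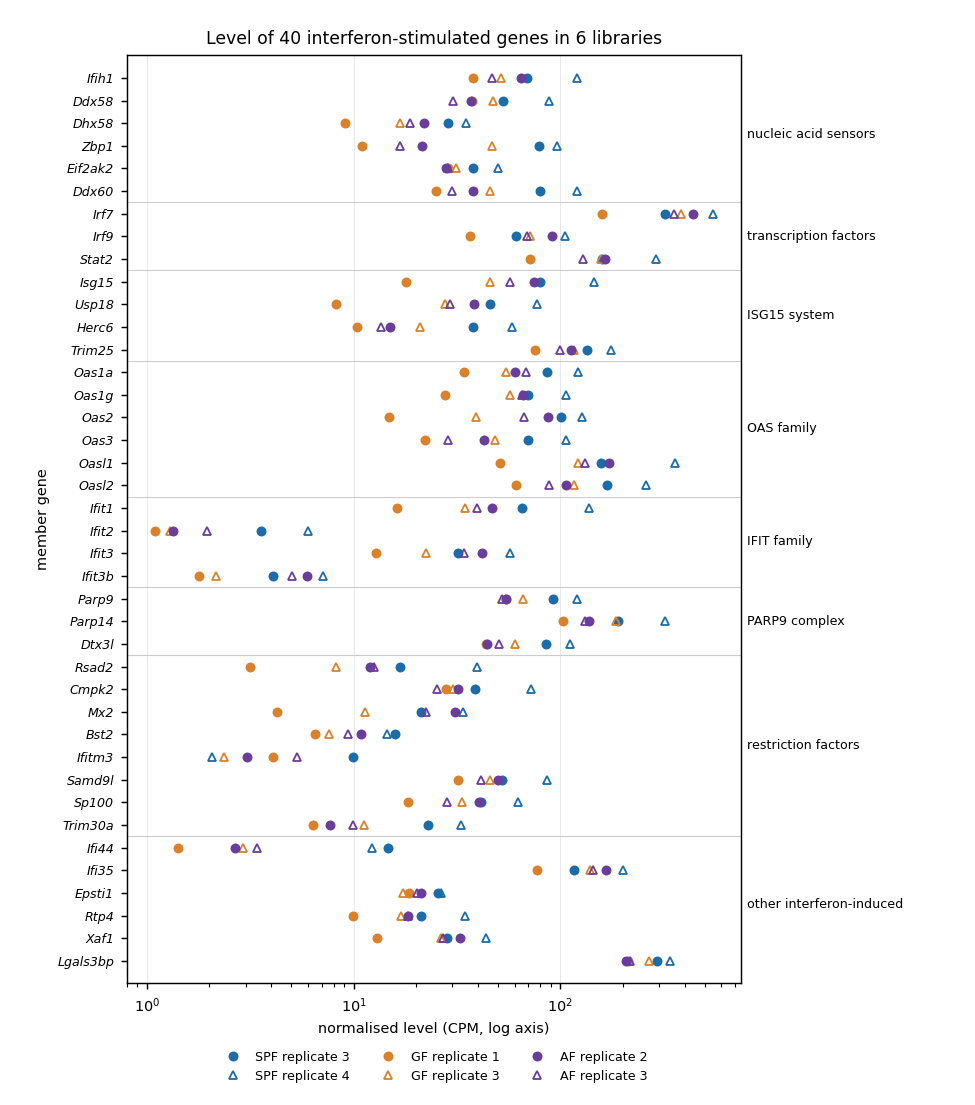
Level of each of the 40 members in CPM (log axis) in the 6 libraries, grouped by role, with 1 mark per library. SPF replicate 4 (open blue triangles) is the rightmost mark for 37 members and GF replicate 1 (filled orange circles) the leftmost for 33.

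The comparison of SPF with the 4 libraries of mice without microbiota pooled GF and AF with equal weight. All 40 members were lower in the pooled groups (49.3% of all genes), with a median log2 fold change of -0.91 against 0.0084 over all genes. Both SPF libraries were above all 4 others for 30 members, against 11.8% of all genes. edgeR's quasi-likelihood test called 0 of the 40 (0.0147% of all genes were called lower), with a smallest adjusted p of 0.264, for Ifi44. At an unadjusted p below 0.05, 30 members were lower, against 6.79% of all genes. DESeq2 called 10 members lower (0.967% of all genes), namely Zbp1, Ddx60, Herc6, Ifit1, Ifit2, Parp9, Dtx3l, Rsad2, Trim30a and Ifi44, and edgeR's likelihood ratio test also called 10 (1.13% of all genes). With no low-count filter, edgeR's quasi-likelihood test called 21 members lower in GF (0.901% of all genes) and 13 lower in AF (1.85%). It called 25 lower in the pooled groups (1.9%) and 3 higher in AF than in GF (0.4%). The members' median log2 fold change in GF against SPF hardly moved, at -1.10 without the filter and -1.09 with it. What changed the p-values was not tested.

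SPF replicate 4 was the highest library for 37 members, which was so for 29.9% of all genes, and SPF replicate 3 was the highest for Bst2, Ifitm3 and Ifi44. The lowest library was GF replicate 1 for 33 members (17.4% of all genes). Without SPF replicate 4, all 40 members were still lower in GF than in SPF, at a median of -0.87, while 33 were lower and 7 higher in AF than in SPF, at a median of -0.44. Without GF replicate 1, all 40 were lower in GF than in SPF at a median of -0.88, and without GF replicate 3 the median was -1.63. Without SPF replicate 3, Ifitm3 was the 1 member higher in GF than in SPF and in AF than in SPF, and the quasi-likelihood test called 3 members lower in GF (0.58% of all genes), 4 lower in AF (1.54%) and 12 lower in the pooled groups (2.82%). With 1 library left in a group, that library is assumed to vary as the other groups do.

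**Figure D3:**
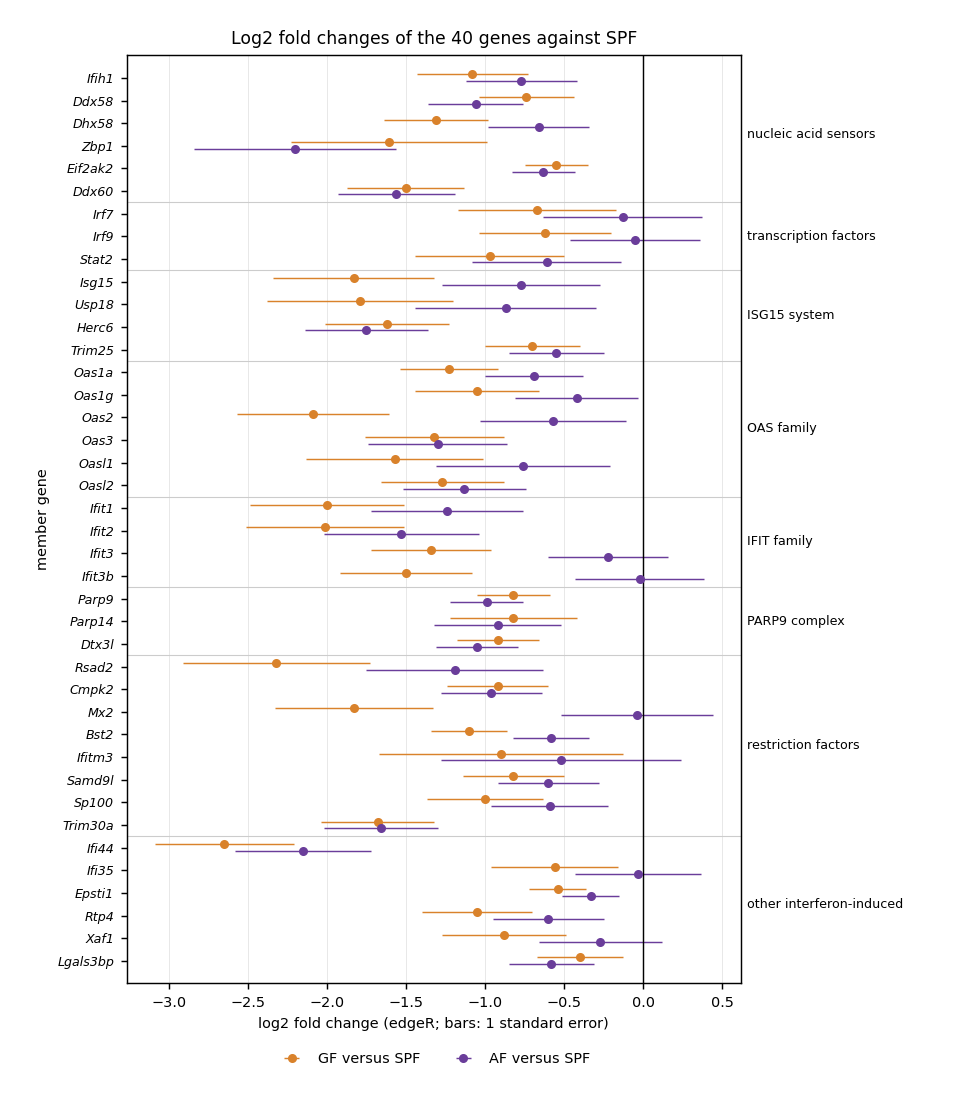
Log2 fold change of each member in GF (orange) and AF (purple) against SPF from edgeR, with bars of 1 standard error and members grouped by role. All 80 points lie below 0, and those of Irf9, Ifit3b, Mx2 and Ifi35 in AF lie within 0.1 of it.

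The nucleic acid sensors recognise viral RNA or DNA in the cell. Ifih1 (chr2:62595798-62646255), the helicase MDA5 that binds long double-stranded RNA, measured 68.6 and 120.2 CPM in the SPF pair, 37.6 and 51.8 in the GF pair and 64.2 and 46.6 in the AF pair, each pair in order of replicate number. Ddx58 (chr4:40203773-40239828), the helicase RIG-I that binds RNA with a triphosphate end, measured 53.0 and 87.7 CPM in the SPF pair, 37.3 and 47.1 in the GF pair and 37.1 and 30.2 in the AF pair. Eif2ak2 (chr17:78852564-78882573), the kinase PKR that stops translation on binding double-stranded RNA, measured 38.0 and 49.7 CPM in the SPF pair, 28.7 and 31.3 in the GF pair and 28 and 28.5 in the AF pair. For all 3 sensors both SPF libraries were above the other 4, and Ddx58 and Eif2ak2 were lowest in AF. Ddx60 (chr8:61928087-62038244), a helicase linked to the RIG-I pathway, measured 80.1 and 120.3 CPM in the SPF pair, 25.1 and 45.8 in the GF pair and 37.9 and 29.9 in the AF pair. Its log2 fold change was -1.50 (SE 0.37) in GF and -1.56 (SE 0.37) in AF against SPF, with adjusted p of 0.738 and 0.361 in edgeR's quasi-likelihood test. Zbp1, a sensor of Z-form nucleic acid that can trigger cell death, and Dhx58, the helicase LGP2 that regulates the other helicases, had log2 fold changes of -1.61 and -1.31 in GF. In AF they were -2.20 and -0.66, so that Zbp1 had the lowest AF value of all members and Dhx58 lay above its GF level. As a group the 6 sensors had a median log2 fold change of -1.19 in GF and -0.92 in AF against SPF, and -0.072 in AF against GF.

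The transcription factors of the pathway had smaller log2 fold changes than the 40 members as a whole, a difference that was not tested. Irf7 (chr7:141262706-141266481), the factor that amplifies the type I response, measured 319 and 548 CPM in the SPF pair, 159.8 and 385 in the GF pair and 438 and 356 in the AF pair. Stat2 (chr10:128270559-128292849), a subunit of ISGF3, measured 159 and 289 CPM in the SPF pair, 71.7 and 157 in the GF pair and 164 and 129 in the AF pair. GF replicate 1 was the lowest library for both, while GF replicate 3 lay close to SPF replicate 3 or above it. For Irf9, the DNA-binding subunit of ISGF3, the log2 fold change against SPF was -0.62 (SE 0.42) in GF and -0.052 (SE 0.41) in AF. None of the 3 reached an unadjusted p of 0.05 in any comparison, and their median was -0.67 in GF and -0.13 in AF against SPF.

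In the ISG15 system, Isg15 (chr4:156199424-156200818) encodes a ubiquitin-like protein that is attached to other proteins. It measured 79.4 and 145 CPM in the SPF pair, 18.0 and 45.5 in the GF pair and 74.5 and 57.3 in the AF pair. Usp18 (chr6:121245906-121270917), the protease that removes ISG15 and dampens the type I receptor, measured 45.8 and 77.5 CPM in the SPF pair, 8.2 and 27.7 in the GF pair and 38.4 and 29.2 in the AF pair. Both genes were lowest in GF, both AF libraries lay above both GF libraries, and both AF libraries lay below both SPF libraries. Isg15 had a log2 fold change of -1.83 (SE 0.51) in GF against SPF and 1.06 (SE 0.50) in AF against GF, with adjusted p of 0.738 and 1 (edgeR). Herc6 (chr6:57581000-57664632), the ligase that attaches ISG15 in mice, took another course and measured 37.9 and 58.3 CPM in the SPF pair, 10.4 and 21 in the GF pair and 15 and 13.5 in the AF pair. GF and AF overlapped for Herc6 and both lay below SPF, with log2 fold changes of -1.62 (SE 0.39) and -1.75 (SE 0.39). Trim25, a ligase that acts on RIG-I signalling, had a log2 fold change of -0.70 in GF and -0.55 in AF.

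Active synthetases of the OAS family make the messenger that activates RNase L, which degrades RNA, and not every gene listed here need encode such an enzyme. Oas2 (chr5:120730333-120749853) measured 101 and 127 CPM in the SPF pair, 14.8 and 38.9 in the GF pair and 87.6 and 66.5 in the AF pair. Its 2 AF libraries lay above both GF libraries and below both SPF libraries. The log2 fold change of Oas2 was -2.09 (SE 0.48) in GF against SPF, 1.53 (SE 0.47) in AF against GF and -0.57 (SE 0.46) in AF against SPF, with adjusted p of 0.738, 1 and 0.685 in edgeR's quasi-likelihood test. Among the other 5, Oas3 had nearly the same level in GF and AF, with log2 fold changes of -1.32 and -1.30 against SPF. Oas1a, Oas1g, Oasl1 and Oasl2 had values from -1.57 to -1.05 in GF and from -1.13 to -0.42 in AF. Oasl1 and Oasl2 are OAS-like genes, and Oas1a and Oas1g are related copies. Reads that match both copies are split by estimate, with a posterior standard deviation of at most 1.91% of the count. The family's medians were -1.30 in GF against SPF and 0.59 in AF against GF.

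The IFIT proteins bind viral RNA ends and hinder its translation. Ifit1 (chr19:34640871-34650009) measured 65.3 and 137 CPM in the SPF pair, 16.2 and 34.4 in the GF pair and 46.6 and 39.3 in the AF pair. Ifit3 (chr19:34583531-34588731), a partner of Ifit1, measured 32.0 and 56.9 CPM in the SPF pair, 12.8 and 22.3 in the GF pair and 41.7 and 34.3 in the AF pair. Its neighbouring copy Ifit3b (chr19:34607970-34613401) measured 4.08 and 7.13 CPM in the SPF pair, 1.79 and 2.17 in the GF pair and 5.97 and 5.05 in the AF pair. Both copies, which share the promoter stretch printed above, were lowest in GF, and their AF libraries fell within the range of SPF. The log2 fold change of AF against GF was 1.12 (SE 0.38) for Ifit3 and 1.48 (SE 0.42) for Ifit3b, with an adjusted p of 1 for both (edgeR). Ifit1 differed from them in AF, where both libraries were below both SPF libraries, at a log2 fold change of -1.24 (SE 0.48). Ifit2 had a log2 fold change of -2.01 (SE 0.50) in GF, close to that of Ifit1 at -2.00 (SE 0.49), and a level of only 4.8 ± 1.74 CPM in SPF against 1.19 ± 0.138 in GF and 1.65 ± 0.442 in AF (mean ± SD, n = 2). For Ifit3b the posterior standard deviation of the read assignment reached 8.48% of the count.

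Parp9, its partner Dtx3l and Parp14 make the PARP9 complex group, ADP-ribosyltransferases and a ubiquitin ligase that enhance interferon signalling. Parp9 (chr16:35938470-35972605) measured 92.6 and 119.9 CPM in the SPF pair, 54.3 and 66.3 in the GF pair and 54.3 and 52.3 in the AF pair. Dtx3l (chr16:35926511-35939151) measured 85.4 and 111 CPM in the SPF pair, 43.5 and 60.1 in the GF pair and 44.4 and 50.7 in the AF pair. For both genes the SPF libraries were above the other 4, and GF and AF overlapped. The log2 fold change of AF against SPF was -0.99 (SE 0.23) for Parp9 and -1.05 (SE 0.26) for Dtx3l, with adjusted p of 0.361 and 0.381 (edgeR). The 2 genes overlap on the chromosome, and with no strand setting given, reads from the overlap cannot be assigned with certainty. Parp14 had log2 fold changes of -0.82 in GF and -0.92 in AF.

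The group of restriction factors includes proteins that act on the virus itself, and others such as Trim30a and Cmpk2 are listed with them. Bst2 (chr8:71534255-71537456), tetherin, which holds budding virions at the cell surface, measured 15.8 and 14.5 CPM in the SPF pair, 6.49 and 7.6 in the GF pair and 10.8 and 9.39 in the AF pair. With TMM scaling the groups did not overlap and lay in the order SPF, AF, GF. The log2 fold changes of Bst2 against SPF were -1.10 (SE 0.24) in GF and -0.58 (SE 0.24) in AF. The distance between AF and GF depended on the scaling. The log2 fold change of AF against GF was 0.52 with TMM, 0.18 with library totals alone and 0.073 on log2(TPM + 1). Mx2 (chr16:97535308-97560900), a Mx GTPase, measured 21.1 and 33.7 CPM in the SPF pair, 4.27 and 11.3 in the GF pair and 31.0 and 22.4 in the AF pair. The AF libraries of Mx2 fell within the SPF range, and its log2 fold change was -1.83 (SE 0.50) in GF against SPF and 1.80 (SE 0.50) in AF against GF, with adjusted p of 0.738 and 1 (edgeR). Trim30a (chr7:104409025-104465193), a TRIM protein that restrains inflammatory signalling, measured 22.9 and 33.0 CPM in the SPF pair, 6.34 and 11.2 in the GF pair and 7.7 and 9.92 in the AF pair. It was below both SPF libraries in all 4 others and did not separate GF from AF, with log2 fold changes of -1.68 (SE 0.36) and -1.66 (SE 0.36) against SPF. Ifitm3 (chr7:141009586-141010770), which blocks virus entry from endosomes, measured 9.94 and 2.06 CPM in the SPF pair, 4.05 and 2.37 in the GF pair and 3.06 and 5.35 in the AF pair. SPF held both the highest and the lowest library for Ifitm3, whose log2 fold change of -0.90 (SE 0.77) in GF is smaller than the difference between the 2 SPF libraries. Rsad2 (viperin, which makes a chain-terminating nucleotide) had the largest difference of the 8 in GF, -2.32 (SE 0.59). Cmpk2, its neighbour and a nucleotide kinase, had -0.92. Samd9l, a restriction factor of poxviruses, and Sp100, a nuclear body protein, had -0.82 and -1.0.

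Among the other interferon-induced genes, Ifi44 (chr3:151730922-151749960) had the largest log2 fold change of all members in GF. It measured 14.6 and 12.3 CPM in the SPF pair, 1.42 and 2.92 in the GF pair and 2.67 and 3.39 in the AF pair. Its 4 GF and AF libraries all lay far below both SPF libraries. The log2 fold change was -2.65 (SE 0.44) in GF, -2.15 (SE 0.43) in AF and -2.40 (SE 0.35) in the pooled groups against SPF, with adjusted p of 0.738, 0.324 and 0.264 in edgeR's quasi-likelihood test. DESeq2 gave it adjusted p of 0.000233, 0.00318 and 1.85e-05. Ifi35, which binds Nmi, had values of -0.56 in GF and -0.033 in AF, and Xaf1, an antagonist of the apoptosis inhibitor XIAP, had -0.88 and -0.27. Rtp4, a chaperone of receptors, had -1.05 and -0.60, and Epsti1 had -0.54 and -0.33. Lgals3bp, a secreted glycoprotein, had its lowest mean in AF, at 212 ± 7.96 CPM against 317 ± 33.7 in SPF and 239.8 ± 38.6 in GF (n = 2).

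The members were split by whether the AF mean lay nearer to that of SPF or of GF on the log2 scale. Nearer SPF were 12 members (30%), a share no higher than the 35.1% of all genes. They were Irf7, Irf9, Isg15, Usp18, Oas1g, Oas2, Oasl1, Ifit3, Ifit3b, Mx2, Ifi35 and Xaf1, with a median log2 fold change of -1.42 in GF against SPF and -0.25 in AF against SPF. The other 28, among them Zbp1, Ddx60, Herc6, Trim30a, Ifi44, Parp9 and Dtx3l, had medians of -1.07 and -0.94. The values that made this split are the same as those given, so it is a description and was not tested. Mx1, the neighbour of Mx2, measured 14.5 and 19.8 CPM in SPF, 5.1 and 12.3 in GF and 26.9 and 22.3 in AF, with both AF libraries above the other 4.

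**Figure D4:**
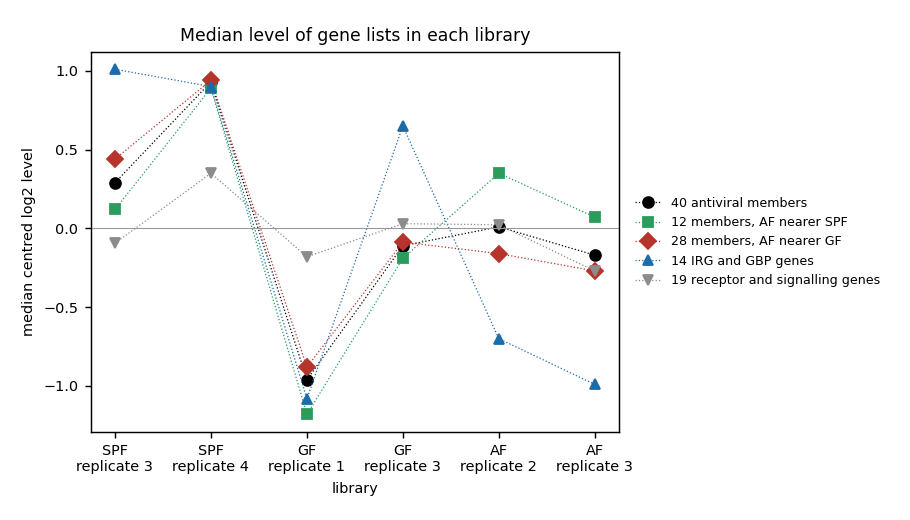
Median log2 level of gene lists in each library, each gene centred on its mean over the 6 libraries. The 40 members (black circles) stand at 0.29 and 0.93 in SPF, -0.96 and -0.11 in GF and 0.0099 and -0.17 in AF, while the IRG and GBP genes (blue triangles) are below -0.6 in both AF libraries. Dotted lines only join the marks of a list.

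The members' median centred log2 level varied within groups, with a pooled SD of 0.439 over the 3 groups. The GF libraries differed most, at -0.96 and -0.11, and the AF libraries least, at 0.0099 and -0.17. The sum of the T cell and intraepithelial lymphocyte list was 256 and 97.0 CPM in SPF, 44.2 and 415 in GF and 24.9 and 16.8 in AF, so the GF library with the higher member level was also the one with more of these transcripts. In AF the lymphocyte sum was lower than in both GF libraries. The part of these cells in the members' levels was not tested. Ifng, the interferon of these lymphocytes, had 4 counts in GF replicate 3, 1 in SPF replicate 3 and 0 in the other 4 libraries. The enterocyte sum was highest in SPF replicate 4, the library in which most members peaked, and its part in the result was not tested.

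The ligands of the pathway were nearly absent from these cells. Of 21 interferon genes, 17 had 0 counts in every library and none passed the filter. Ifnl2 and Ifnl3, the interferon lambda genes of the mouse, had 10 and 4 counts in SPF replicate 3 and 1 each in GF replicate 3, and 0 in the other 4 libraries. A count of 0 allows up to 3 counts, or 0.109 to 0.236 CPM depending on the library, by counting error alone.

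The receptor and signalling genes differed less from SPF than the members. The 19 of them, all tested, had medians of -0.13 in GF and -0.31 in AF against SPF, with 0 called. At an unadjusted p below 0.05, 1 was lower in GF and 3 in AF, where 3.51% and 6.52% of all genes were. Ifnlr1, the interferon lambda receptor subunit, measured 17.8 and 33.6 CPM in SPF, 14 and 18.7 in GF and 22.5 and 13.6 in AF, and these groups overlapped. Ifnar1 and Ifngr1, receptor subunits for type I interferon and interferon gamma, had log2 fold changes of 0.019 and -0.017 in GF (SE 0.23 and 0.24). Irf1 had log2 fold changes of -0.74 (SE 0.34) in GF and -0.73 (SE 0.34) in AF, and Irf8 had -0.68 (SE 0.29) and -1.33 (SE 0.30). The adaptors of nucleic acid sensing, 9 of 12 tested, had medians of -0.46 in GF and -0.47 in AF, and Mavs, the mitochondrial adaptor of the RNA helicases, had -0.76 (SE 0.23) in GF.

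A wider list of other interferon-stimulated genes, 53 of 68 tested, had 48 lower and 5 higher in GF than in SPF, with a median of -0.54, 13 lower at an unadjusted p below 0.05 (3.51% of all genes) and 0 called. In AF against SPF it had 44 lower and 9 higher, with a median of -0.58, where all 40 members were lower. In AF against GF it had 26 higher and 27 lower, with a median of -0.01, where the 40 members had 30 higher. Its smallest p in GF was that of Phf11d (-2.33, SE 0.44), which measured 12.2 and 15.4 CPM in SPF, 1.75 and 3.8 in GF and 9.5 and 7.49 in AF. The IRG and GBP GTPases are induced most by interferon gamma and act on vacuoles of intracellular pathogens. Their AF levels lay further below SPF than those of the antiviral members (median -0.68). Of 14 tested, 11 were lower in GF than in SPF (median -0.95) and 14 were lower in AF than in SPF (median -1.69). Against GF, 11 were lower in AF (median -0.80), and 0 were called in these comparisons. By library, their median centred log2 level was -1.08 and 0.65 in GF and -0.70 and -0.99 in AF. GF replicate 1 thus lay below both AF libraries, and only GF replicate 3 lay above them. That library also had the highest lymphocyte sum (415 CPM), and what this means for these genes was not tested. Irgm2 of that family measured 34.2 and 50.6 CPM in SPF, 9.3 and 18.6 in GF and 10.4 and 7.13 in AF. The difference between the lists was not tested, and their members share libraries. The core of the response element stood in the window of 10 of 11 IRG and GBP genes (90.9%) and of 29 of 56 other interferon-stimulated genes (51.8%). The gamma-activated site stood in 6 of the 11 (54.5%) and 5 of the 56 (8.93%), against 9.55% of all genes.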

How the data were processed

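Expected counts per gene were deposited by the authors as RSEM gene results, 1 table per library, per the file headers. TPM and RSEM's posterior standard deviation of each count (another unit of counts, used only as a measure of uncertain read assignment) are deposited beside them as further columns, per the file headers. Named in the submitters' processing notes are the aligner STAR (2.5.2b), RSEM, edgeR (3.16.5) and the build GRCm38/mm10. Annotation release, strand setting and read filters: not given in the sources used here. Symbols and 1-based coordinates came from GENCODE M21 (GRCm38), with symbols for 51633 of 51912 genes.

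Expected counts were rounded, 23.5% of the values above 0 not being whole. edgeR 4.0.16 (filterByExpr defaults, TMM, quasi-likelihood F test, legacy fit) used all 6 libraries in 1 fit, with 3 residual degrees of freedom and a common biological coefficient of variation of 0.368. Adjusted p-values (Benjamini-Hochberg) cover all 13644 genes, with a threshold of 0.05. Standard errors were taken from the F statistic, as the size of the log2 fold change over the root of F. Totals of 16109488 to 19417054 counts make 1 count worth 0.0365 to 0.0785 CPM, and TMM factors were 0.791 to 1.41. The fit was also run on simulated counts with less spread between libraries than these data and with large changes. That run does not measure how well the fit finds changes here. DESeq2 1.42.0, edgeR's likelihood ratio test and limma 3.58.1 on log2(TPM + 1) were alternatives, with R 4.3.3.

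The members and lists were chosen with earlier results of these data known. Values in every library are given for the 6 members with the smallest p in each of 4 comparisons (GF, AF and pooled GF and AF against SPF, and AF against GF) and for Isg15, Ifit1, Irf7, Stat2, Ddx58, Ifih1, Usp18, Bst2, Ifitm3 and Eif2ak2. Of the listed genes outside the members, Irf1, Ifnlr1, Ifnar1, Ifngr1 and some of those with the smallest p were named, and 1 that the rule names is not reported here. Promoter windows are RefSeq's for GRCm38.p6, and 30 of the 32 members' windows ended in an M21 transcript of the gene.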

Additional observations from a re-analysis of the deposited data

How the results depend on the processing

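The count of members called lower, 0 in edgeR's quasi-likelihood test for GF, AF and the pooled groups against SPF, was 5, 6 and 10 with DESeq2, 6, 5 and 10 with edgeR's likelihood ratio test, and 21, 13 and 25 with no low-count filter, where 0.901%, 1.85% and 1.9% of all genes were called lower. It stayed at 0 with robust quasi-likelihood, median-of-ratios scaling, library totals alone, a filter of 1 CPM in 2 libraries, an adjusted p below 0.1, without the 20 most abundant genes and with limma on log2(TPM + 1) or log2(TPM + 0.1). In AF against GF, 3 members (Oas2, Ifit3 and Mx2) were called higher with no low-count filter, as were 0.4% of all genes. The cause was not tested. Leaving out 1 library at a time gave 0 to 3, 0 to 4 and 0 to 12 members called lower against SPF, the upper values without SPF replicate 3, and 0 called higher in AF against GF. The median log2 fold change of the members then ran from -1.63 to -0.87 for GF against SPF, 0.11 to 0.84 for AF against GF, -0.95 to -0.44 for AF against SPF and -1.18 to -0.54 for the pooled groups. The AF against GF median reversed to -0.0073 on log2(TPM + 1) and -0.017 on log2(TPM + 0.1), the cause of which was not tested, though the median of all genes was then -0.36 and -0.42. Without AF replicate 3, Ifi35, Ifit3b, Irf9 and Mx2 were higher in AF than in SPF, and without SPF replicate 4 Ifi35, Irf7 and Irf9 were higher in the pooled groups. The 6 members with the smallest p in each comparison were followed over the alternative settings. Of these results, 370 kept direction and side of the threshold, 56 kept direction and passed it, and 0 changed direction. An adjusted p below 0.1 moves only the threshold, so direction could not change there. Because these members were chosen by smallest p, keeping direction was likely from the start. Values of members outside the 6 of a comparison did change direction. Among them were Ifitm3 in GF and AF against SPF without SPF replicate 3. Others were Irf7, Irf9, Ifit3, Ifit3b, Mx2, Ifi35 and Xaf1 in AF against SPF without SPF replicate 4. No paired analysis was possible because the labels link no library of a group to a library of another group. The replicate numbers are not described as such a link. Depth limits Ifit2 most, with 17 counts in 1 library.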
